A study of Mus musculus with 6 samples.

Results

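The 9 genes described here encode the hemidesmosome and its partners in basal adhesion: the integrin chains Itga6, Itgb4 and Itga3, type XVII collagen (Col17a1), the laminin chains Lama3 and Lamb3, the plakins Dst and Plec, and the tetraspanin Cd151. They were chosen by gene name from a table of 57010 genes, each name matched 1 row, and all 9 passed a filter of at least 1 TPM in at least 3 of 6 libraries, as did 15323 genes in all. TPM is a length-normalized share of the transcripts in a library, scaled to a fixed total. The libraries were made from mouse skin, 3 in each of 2 groups. In the MOD group, imiquimod, which activates Toll-like receptor 7, was applied daily at 62.5 mg to the shaved back for 6 days, and the source field calls these samples experiment type. The CON group received no imiquimod, and its source field reads wild type. All mice had 1 week of adaptation, and before collection all received intramuscular atropine (0.02 mg/mL, 0.02 mL per 10 g) and intraperitoneal zoledronic acid (6.5 mg/mL, 0.1 mL per 10 g). Shaving is named in the labels for the treated mice, and whether the control skin was shaved is not stated in what was used here. Strain, sex and age are not stated either. The labels do not tie each library to its own animal. The p-values thus rest on the spread between the 6 samples, part of which may be technical.

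Hemidesmosomes are the junctions that rivet basal keratinocytes to the basement membrane. In them, integrin α6β4 and type XVII collagen span the plasma membrane and bind laminin-332 outside the cell, while plectin and the epithelial form of dystonin tie them to keratin filaments inside it. Integrin α3β1 binds the same laminin outside hemidesmosomes, and the tetraspanin CD151 associates with both laminin-binding integrins. Loss of any of several of these proteins causes skin blistering in humans, and α6, β4 and type XVII collagen also mark hair follicle stem cells.

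The promoters of Itga3 and Col17a1, which were lower in MOD, and of Cd151, the member with the highest level, are shown as the 250 bases before the start site (RefSeq, GRCm38.p6). The TPM table was made on GRCm39, and these coordinates are not converted to it. Of the 9 members, 5 matched an entry in the promoter table (Itga3, Col17a1, Lamb3, Dst and Cd151), and the first entry of each gene is printed. Capitals mark every match, on either strand, to 3 motifs. The GC box was searched as GGGCGG. The AP-1 site was searched as TGANTCA and has no match in these windows. The TATA-type word was searched with its 6 letters in order, as TATAAA. None of the matches overlap.
Itga3, chr11:95076715-95076964, minus strand: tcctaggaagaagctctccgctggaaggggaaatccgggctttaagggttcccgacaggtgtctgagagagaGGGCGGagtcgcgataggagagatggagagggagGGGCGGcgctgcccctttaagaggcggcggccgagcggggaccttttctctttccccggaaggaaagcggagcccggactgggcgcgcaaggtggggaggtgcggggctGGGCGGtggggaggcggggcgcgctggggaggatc
Col17a1, chr19:47692043-47692292, minus strand: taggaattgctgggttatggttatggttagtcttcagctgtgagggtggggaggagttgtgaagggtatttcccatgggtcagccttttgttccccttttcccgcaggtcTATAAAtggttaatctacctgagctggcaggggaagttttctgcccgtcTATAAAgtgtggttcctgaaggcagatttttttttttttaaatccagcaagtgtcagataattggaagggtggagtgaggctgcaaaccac
Cd151, chr7:141467112-141467361, plus strand: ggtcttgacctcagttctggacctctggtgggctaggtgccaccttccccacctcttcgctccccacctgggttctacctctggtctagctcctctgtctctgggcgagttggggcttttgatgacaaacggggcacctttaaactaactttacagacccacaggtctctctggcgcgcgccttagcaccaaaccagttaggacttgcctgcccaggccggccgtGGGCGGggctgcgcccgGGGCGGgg
The Itga3 window held 3 GC boxes and was 67.6% G or C. The Cd151 window held 2 GC boxes and was 62.4% G or C. Second entries of these genes, not printed, differed. That of Itga3 held 1 GC box and was 50.8% G or C, and that of Cd151 held 0 and was 58.0% G or C. The Col17a1 window held 2 TATA-type words, no GC box, and was 46.0% G or C, against a median of 52.4% over all 32851 windows. A GC box was present in 32.7% of all windows of this length, a TATA-type word in 12.4% and an AP-1 site in 6.75%. These are matches of letters, not measured sites.

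The control libraries were not alike. The class II gene H2-Ea was listed at 0 in every MOD library and in CON 2, whereas CON 1 had 194 TPM and CON 3 had 162 TPM. Each test of a single gene was therefore repeated with an H2-Ea term, which sets MOD against CON 2 alone. The term assumes that CON 2 varies like the other libraries, and it was not applied to the ratios within libraries. With CON 2 alone as the control, a call can be lost although the difference is no smaller. Pearson's r across genes was 0.968 to 0.976 between MOD libraries, 0.938 to 0.942 between CON libraries and 0.775 to 0.879 between groups. Of all tested genes, 12.5% were higher and 36.1% lower in MOD (limma on log2(TPM + 1), adjusted p below 0.05), and the median gene differed by -0.31 on that log2 scale. Median-of-ratios scaling moved that median to 0.00, so differences are also given relative to it. With that scaling 20.2% of genes were higher and 18.7% lower, and with the H2-Ea term 4.35% were higher and 17.9% lower.

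Composition also differed between the groups. All 12 tested hair shaft and inner root sheath keratins and trichohyalin were lower in MOD, where their sum was 2.63 to 7.13 TPM, against 3230 to 16900 TPM in CON, and Krt34 was listed at 0 in every MOD library. Of 13 skeletal muscle genes, 11 were higher in MOD, with sums of 21300 to 32500 TPM in MOD and 3120 to 11100 TPM in CON. Of 8 blood endothelium genes, 7 were higher, with sums of 365 to 454 TPM in MOD and 121 to 156 TPM in CON. All 6 macrophage genes were higher, with sums of 390 to 505 TPM in MOD and 61.8 to 186 TPM in CON. The 6 neutrophil genes that could be tested, of 8, were also higher. The sum of the 8 neutrophil genes was 2430 to 7570 TPM in MOD and 27.3 to 79.2 TPM in CON, and Retnlg was listed at 0 in every CON library. Most of the MOD sum came from S100a8 (mean 2799 TPM) and S100a9 (mean 2051 TPM). The other neutrophil genes averaged 29.5 TPM or less in MOD, and Ly6g overlapped between the groups, so the sum does not measure neutrophil content. For 8 suprabasal genes, the sums overlapped, at 2660 to 4160 TPM in MOD and 1340 to 6400 TPM in CON, and 1 gene was lower. For Schwann cells, 1 of 8 genes was higher, and the sums overlapped at 340 to 538 TPM in MOD and 218 to 346 TPM in CON. For fibroblasts, 1 of 6 was higher, with sums of 4240 to 6670 TPM in MOD and 3350 to 5000 TPM in CON. In bulk skin, fewer cells of a type and less RNA per cell cannot be told apart.

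Among the 9 members, Itga3, Col17a1 and Lama3 fell in MOD, none rose, and 6 did not pass the test. The 3 called lower are 33.3% of the members, near the 36.1% of all tested genes called lower. No member was called higher, beside 12.5% of all tested genes. At an unadjusted limma p below 0.05 none was higher either, beside 2269 of the 15323 tested genes. Libraries of the groups did not overlap for the same 3 members, all lower in MOD, against 44% of all tested genes apart and lower and 15.5% apart and higher. The members' median log2 difference was -0.14, and 5 members lay above the median of all tested genes and 4 below it. With the H2-Ea term, Itga3 and Lama3 were lower and none was higher. After median-of-ratios scaling Itga3 alone was lower, and Itga6 and Cd151 were higher. The sum of the 9 members was 344 ± 5.76 TPM in MOD and 383 ± 35.1 TPM in CON (SD, n = 3 each), and Cd151 made up the largest single share of it.

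**Figure D1:**
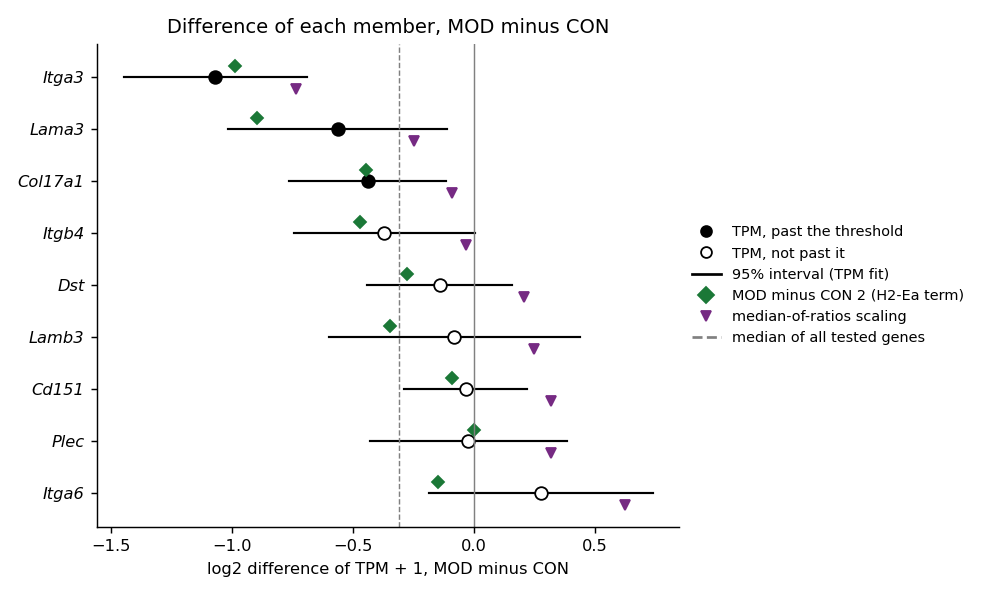
Log2 difference of TPM + 1 for each of the 9 members, MOD minus CON (x axis), with the limma estimate and its 95% interval (circles and lines, filled where the adjusted p was below 0.05), the estimate with the H2-Ea term (diamonds) and the estimate after median-of-ratios scaling (triangles). Itga3 lies farthest to the left under all 3 fits, while Dst, Lamb3, Cd151 and Plec lie left of 0 or at it as deposited and right of it after median-of-ratios scaling.

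The spread among controls differed by gene. In CON, the highest library exceeded the lowest by 1.63 times for Itga6, 1.63 times for Lama3 and 1.72 times for Lamb3. In MOD, the same ratio was 1.06 for Itga6, 1.10 for Lama3 and 1.21 for Lamb3. Across the 9 members, CON 1 was the lowest control for 6 members and the highest for 0, while CON 2 was the highest for 5. Among the treated libraries, MOD 2 was the lowest for 7 members and MOD 1 the highest for 5.

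Levels, which TPM gives per length, followed a similar order in both groups at the ends and a different one in the middle. Cd151 had the highest level in MOD and in CON, and Lama3 had the lowest mean in both. In MOD, Itga6 came second, above Col17a1 and Dst, whose ranges overlapped, and then came Plec, Itgb4, Lamb3 and Itga3, of which Lamb3 and Itga3 overlapped. In CON, Col17a1 came second, followed by Dst and Itga6, which overlapped, then by Plec, Itga3 and Itgb4, each overlapping its neighbour, and by Lamb3, which overlapped with Lama3.

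**Figure D2:**
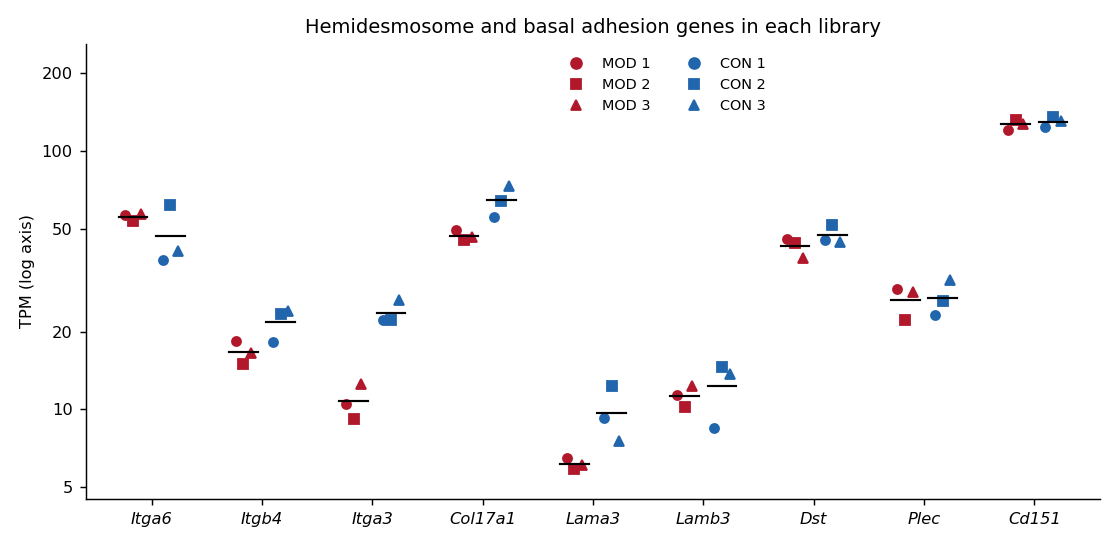
TPM of the 9 members in each of the 6 libraries, MOD left of CON for each gene, on a log axis, with a line at each group's arithmetic mean. For Itga3, Col17a1 and Lama3 every MOD library lies below every CON library, and for the other 6 members the groups overlap.

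Among the integrin chains, Itga3 fell and the α6 and β4 chains did not pass the test. Itga3, which encodes the α3 chain of the laminin receptor α3β1, had 10.5, 9.15 and 12.6 TPM in MOD, against 22.2, 22.1 and 26.5 TPM in CON. The highest MOD library was well below the lowest control, and CON 2 lay with CON 1. Itga3 averaged 10.8 ± 1.73 TPM in MOD and 23.6 ± 2.48 TPM in CON (SD, n = 3 each), 0.456 times the control mean. The log2 difference was -1.07 ± 0.16 (SE, limma adjusted p = 0.00328). It lay 0.76 below the median of all genes on the log2 scale, and Itga3 was called lower under all 16 alternative settings, with adjusted p between 0.00263 and 0.0379.

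Itga6, the chain that pairs with β4 in the hemidesmosome, had 56.7, 53.6 and 56.95 TPM in MOD, against 37.8, 61.9 and 41.0 TPM in CON. The MOD libraries lay close together, above CON 1 and CON 3 and below CON 2. The means were 55.8 ± 1.84 TPM in MOD and 46.9 ± 13.1 TPM in CON, with a log2 difference of 0.28 ± 0.19 (SE, adjusted p = 0.272, 95% interval -0.19 to 0.74). Under the H2-Ea term the direction turned to -0.15 (adjusted p = 0.524). The difference was called at 0.63 after median-of-ratios scaling (adjusted p = 0.0275) and at 0.49 without CON 2 (adjusted p = 0.029). Itga6 is also made by blood endothelium, whose markers were higher in MOD as given above, and their part in its level was not tested.

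Itgb4, which encodes the β4 chain with its long cytoplasmic tail, had 18.5, 14.9 and 16.5 TPM in MOD, against 18.3, 23.4 and 24.0 TPM in CON. Only MOD 1 and CON 1 crossed, by a small margin. The means were 16.6 ± 1.77 TPM in MOD and 21.9 ± 3.14 TPM in CON, and the log2 difference of -0.37 ± 0.16 did not pass the test (adjusted p = 0.0905, 95% interval -0.74 to 0.0032). It was called under none of the 16 alternatives, with adjusted p between 0.0529 and 0.927. Exons of Itgb4 overlap B230344G16Rik on the opposite strand in GENCODE M21, and whether reads were assigned by strand is not given in the sources used here.

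The integrin chains stood in different proportions within libraries, a measure that no scaling of a library changes. The ratio of Itga6 to Itgb4 was 3.07, 3.59 and 3.45 in MOD, against 2.07, 2.65 and 1.71 in CON, so every MOD library was above every control. CON 2 was again the control nearest to MOD, and the mean MOD ratio was 1.27 times that of CON 2. Itga3 to Itga6 was 0.186, 0.171 and 0.221 in MOD, against 0.587, 0.358 and 0.645 in CON. Itgb1, the β chain that α3 pairs with, had 177, 159.7 and 156 TPM in MOD, against 119, 139.6 and 104 TPM in CON. Itgb1 was higher in MOD (log2 difference 0.45 ± 0.14, adjusted p = 0.0381). Its call was lost under the H2-Ea term, where the difference was 0.23. The call was also lost without MOD 1 (adjusted p = 0.121), MOD 2 (0.0839), MOD 3 (0.0656), CON 1 (0.0926) or CON 3 (0.0825). The ratio of Itga3 to Itgb1 was 0.0596, 0.0573 and 0.0806 in MOD, against 0.187, 0.159 and 0.254 in CON. The geometric mean of that ratio was 0.0650 in MOD and 0.196 in CON, 0.332 times as high.

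With 3 libraries against 3, the exact two-sided permutation test cannot go below p = 0.10, and after adjustment over the 26 ratios computed its smallest value was 0.163. The ratios of Itga6 to Itgb4, Itga3 to Itgb1 and Itga3 to Itga6, whose groups did not overlap, all had these values, so none passed 0.05. The first was higher in MOD and the other two were lower.

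**Figure D3:**
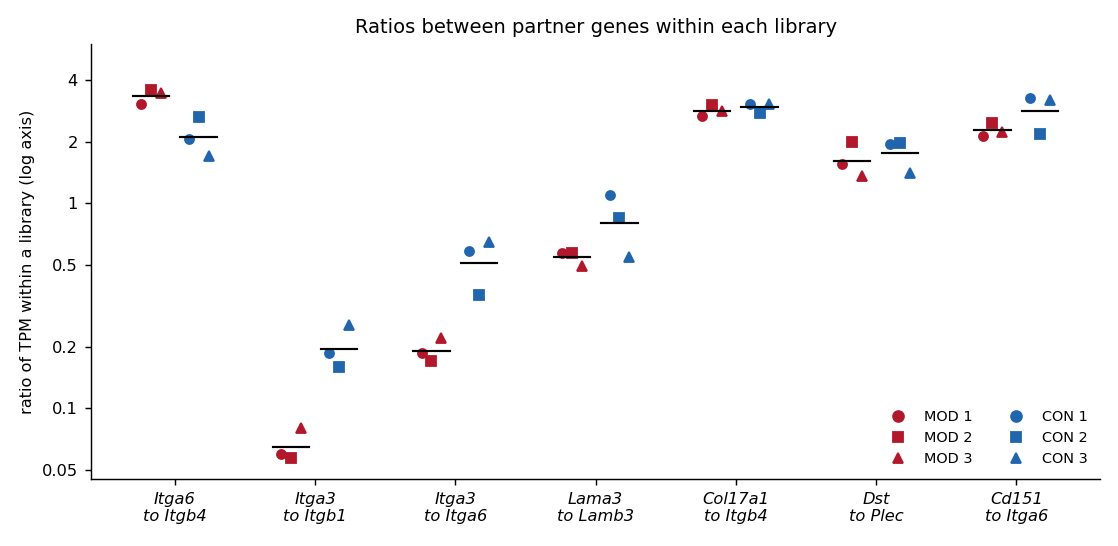
Ratio of TPM between partner genes within each of the 6 libraries, on a log axis, MOD left of CON for each ratio, with a line at each group's geometric mean. Itga6 to Itgb4 is higher in every MOD library than in any control, the 2 ratios with Itga3 are lower, and the other 4 ratios overlap.

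Col17a1, the transmembrane collagen of the hemidesmosome and an autoantigen of bullous pemphigoid, had 49.5, 45.1 and 46.4 TPM in MOD, against 55.5, 64.4 and 73.4 TPM in CON. The groups did not overlap, and the 3 MOD values lay within a narrow range. Col17a1 averaged 47.0 ± 2.25 TPM in MOD and 64.4 ± 8.92 TPM in CON, 0.730 times the control mean, with a log2 difference of -0.44 ± 0.14 (adjusted p = 0.0355). It lay only 0.13 below the median of all genes on the log2 scale, and its difference was -0.09 after median-of-ratios scaling (adjusted p = 0.65). The call held under 5 of 16 alternatives. It was lost under the H2-Ea term, where the difference was -0.45, close to the -0.44 without that term. The call was also lost without CON 2 (adjusted p = 0.0794), CON 3 (0.0722), MOD 1 (0.0753), MOD 2 (0.106) or MOD 3 (0.082). The ratio of Col17a1 to Itgb4, its partner at the membrane, was 2.68, 3.02 and 2.81 in MOD and 3.04, 2.76 and 3.06 in CON, which overlapped (log2 difference -0.06, exact permutation p = 0.5, adjusted p = 0.591).

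Of the laminin-332 chains among the members, Lama3 fell and Lamb3 did not pass the test. Lama3, the α3 chain that carries the integrin-binding domains, had 6.48, 5.87 and 6.10 TPM in MOD, against 9.28, 12.3 and 7.57 TPM in CON. Every MOD library was below every control, and CON 3 lay nearest to MOD. Lama3 averaged 6.15 ± 0.308 TPM in MOD and 9.72 ± 2.41 TPM in CON, 0.633 times the control mean (log2 difference -0.56 ± 0.19, adjusted p = 0.0466). The difference was -0.90 under the H2-Ea term (adjusted p = 0.0373) and -0.25 after median-of-ratios scaling (adjusted p = 0.286). The call held under 6 of 16 alternatives and was lost without CON 1 (adjusted p = 0.0922), CON 2 (0.11), MOD 1 (0.101), MOD 2 (0.125) or MOD 3 (0.0996). Exons of Lama3 overlap Gm29200 on the opposite strand.

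Lamb3, the β3 chain, had 11.3, 10.2 and 12.3 TPM in MOD, against 8.46, 14.6 and 13.8 TPM in CON. The MOD values lay between the lowest control and the others, and the difference did not pass the test (log2 difference -0.08 ± 0.22, adjusted p = 0.779, 95% interval -0.60 to 0.44). The ratio of Lama3 to Lamb3 was 0.572, 0.575 and 0.495 in MOD and 1.10, 0.845 and 0.551 in CON. These overlapped (exact permutation p = 0.3, adjusted p = 0.411).

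Neither plakin of the inner plaque passed the test. Dst, whose epithelial isoform is the pemphigoid antigen of the inner plaque, had 45.7, 43.9 and 38.7 TPM in MOD, against 45.2, 51.9 and 44.7 TPM in CON. MOD 1 lay within the control range and the other MOD libraries below it (log2 difference -0.14 ± 0.13, adjusted p = 0.383, 95% interval -0.44 to 0.16). Plec, which links integrin β4 to keratin filaments, had 29.3, 22.1 and 28.5 TPM in MOD, against 23.2, 26.4 and 31.6 TPM in CON. These ranges were almost the same (log2 difference -0.02 ± 0.17, adjusted p = 0.925, 95% interval -0.43 to 0.39). The ratio of Dst to Plec was 1.56, 1.99 and 1.36 in MOD and 1.95, 1.97 and 1.41 in CON, which overlapped (exact permutation p = 0.7). Dst and Plec are also transcribed in muscle and nerve, from other promoters, and the muscle markers were higher in MOD as given above. The gene-level TPM does not separate isoforms, and the part of muscle in these values was not tested. Exons of Plec overlap Parp10 on the same strand, and exons of Dst overlap A930005N03Rik and Gm26788 on the opposite strand.

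Cd151 had 121, 132.5 and 127 TPM in MOD, against 124, 135 and 131 TPM in CON. The values of both groups interleaved within a narrow range, and the highest CON library exceeded the lowest by 1.09 times. The means were 127 ± 5.88 TPM in MOD and 129.8 ± 5.58 TPM in CON, with the smallest standard error among the members (log2 difference -0.03 ± 0.11, adjusted p = 0.814, 95% interval -0.29 to 0.22). After median-of-ratios scaling the direction turned to 0.32 and was called higher (adjusted p = 0.0387). Cd151 is widely expressed, in endothelium among other cells, and the part of these cells was not tested. Its exons overlap Gm10575 on the opposite strand. The ratio of Cd151 to Itga6 was 2.13, 2.47 and 2.23 in MOD and 3.28, 2.18 and 3.18 in CON, which overlapped (exact permutation p = 0.3, adjusted p = 0.411).

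Basal keratinocytes express the keratin pair Krt5 and Krt14, which served as a scale for the members within each library. Krt14 had 3057, 3022 and 3035 TPM in MOD, against 1132, 1625 and 1906 TPM in CON. It was higher in MOD (log2 difference 1.00 ± 0.21, adjusted p = 0.00966), a call lost with the H2-Ea term, where the difference was 0.90. Krt5 had 1730.4, 1507 and 1692 TPM in MOD, against 1264, 1511 and 1972 TPM in CON, which overlapped (log2 difference 0.08 ± 0.19, adjusted p = 0.763). Krt14 is close in sequence to Krt16 and Krt17, so its level is uncertain.

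Relative to Krt14, all 9 members were lower in every MOD library than in any control, with log2 differences between -2.14 for Itga3 and -0.72 for Itga6. Since Krt14 is the shared denominator, these 9 ratios are not independent. Krt14 itself was higher in MOD by 1.00 on the log2 scale, so a gene with equal TPM in both groups also falls relative to it. The share of all tested genes that were lower relative to Krt14 was not computed. Relative to Krt5, Itga3 (log2 difference -1.22), Col17a1 (-0.52) and Itgb4 (-0.47) were lower without overlap, and the other 6 members overlapped. The share of all tested genes apart relative to Krt5 was not computed either. For Itgb4, the ratio to Krt5 was 0.0107, 0.00991 and 0.00977 in MOD, against 0.0145, 0.0155 and 0.0122 in CON. Every ratio without overlap had exact permutation p = 0.1, the smallest that 3 libraries against 3 allow, and adjusted p = 0.163.

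**Figure D4:**
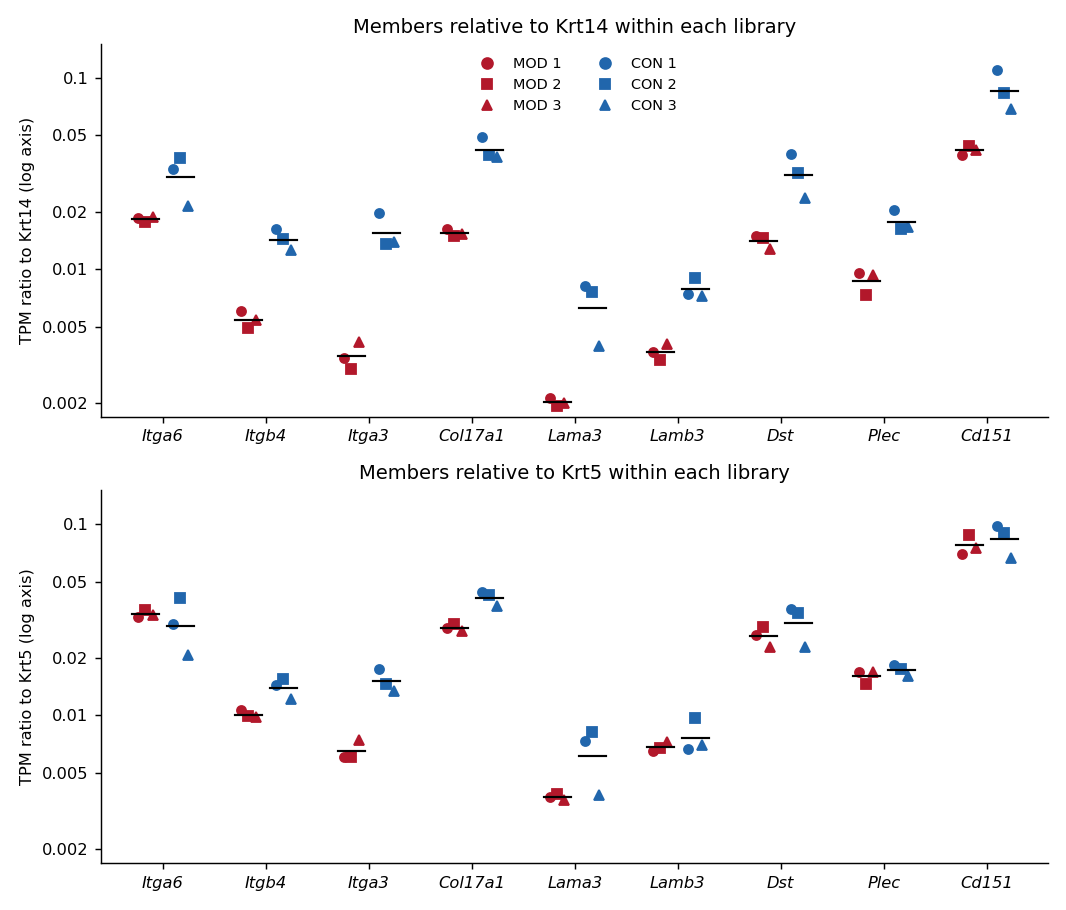
Ratio of TPM of each member to Krt14 (upper panel) and to Krt5 (lower panel) within each of the 6 libraries, on log axes, MOD left of CON for each gene, with a line at each group's geometric mean. In the upper panel every MOD library lies below every control for all 9 members, and in the lower panel this holds for Itgb4, Itga3 and Col17a1.

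The other genes of basal adhesion were described by 6 lists of 61 genes, of which 60 were tested. Of these 60, 10 were higher and 24 lower in MOD, beside 12.5% higher and 36.1% lower among all tested genes. With the H2-Ea term 0 were higher and 16 lower, beside 4.35% and 17.9% of all genes. After median-of-ratios scaling 14 were higher and 14 lower, beside 20.2% and 18.7% of all genes. Among 6 basal keratins and basal cell regulators, 1 was higher (Krt14) and 3 were lower, and the median log2 difference was -0.45. Trp63, the transcription factor that maintains basal keratinocytes, fell to 29.4 ± 0.760 TPM in MOD, against 85.9 ± 3.14 TPM in CON (log2 difference -1.52, adjusted p = 0.000645). Krt15, a keratin of basal cells and of the follicle bulge, fell to 211 ± 68.1 TPM in MOD, against 698 ± 110.2 TPM in CON (log2 difference -1.76, adjusted p = 0.00293). Both held under all 16 alternatives. Their lower levels stood beside the near absence of hair shaft and root sheath keratins in MOD, whose part in them, and in the lower Itga3, was not tested.

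All 5 other plakins were lower in MOD, beside 36.1% of all tested genes. Their median log2 difference was -1.31, while Dst and Plec did not pass the test. Dsp, the desmosomal plakin, fell to 39.8 ± 5.63 TPM in MOD, against 223 ± 80.7 TPM in CON (log2 difference -2.40, adjusted p = 0.0018). Evpl, a cornified envelope precursor, fell to 9.90 ± 0.211 TPM in MOD, against 29.0 ± 8.03 TPM in CON (log2 difference -1.42, adjusted p = 0.00352). Ppl, its partner, fell to 17.6 ± 2.13 TPM in MOD, against 48.0 ± 20.7 TPM in CON (log2 difference -1.31, adjusted p = 0.0145). That call was lost with the H2-Ea term, where the difference was -1.38, and without MOD 1 (adjusted p = 0.0509). All 5 were also lower after median-of-ratios scaling, and 4 with the H2-Ea term. Whether the other plakins differ from Dst and Plec was not tested.

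Among 18 tested laminins and other basement membrane genes, 2 were higher and 7 lower, with a median of -0.31, close to that of all genes. Among all tested genes, 12.5% were higher and 36.1% lower. Lama5, a chain of the basement membrane laminins of skin, fell to 23.3 ± 13.6 TPM in MOD, against 52.3 ± 16.3 TPM in CON (log2 difference -1.23, adjusted p = 0.0377). Its call held under 6 of 16 alternatives, with adjusted p up to 0.216, and was lost without MOD 1 (0.119), MOD 2 (0.11), CON 1 (0.0569), CON 2 (0.0592) or CON 3 (0.102). Frem1, an extracellular protein of the epidermal basement membrane, fell to 1.00 ± 0.673 TPM in MOD, against 2.87 ± 0.526 TPM in CON (log2 difference -0.99, adjusted p = 0.0202). That call was lost with the H2-Ea term, where the difference was -1.20, and without MOD 1 (adjusted p = 0.0718), MOD 2 (0.067) or CON 2 (0.0555). The 2 that rose, Lamc1 (log2 difference 0.67, adjusted p = 0.0254) and Hspg2, which encodes perlecan (0.75, adjusted p = 0.0334), were named after their values were seen. The calls held under 10 of 16 alternatives for Lamc1 and 11 of 16 for Hspg2. Both calls were lost with the H2-Ea term, where the differences were 0.39 for Lamc1 and 0.54 for Hspg2. Both genes are also expressed in blood vessels, whose part was not tested.

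Of 8 other keratinocyte integrins, 2 were higher and 1 lower, beside 12.5% higher and 36.1% lower among all tested genes. Itga5, the fibronectin receptor chain, rose to 27.0 ± 4.63 TPM in MOD, against 12.4 ± 2.64 TPM in CON (log2 difference 1.07, adjusted p = 0.0068). That call was lost with the H2-Ea term, where the difference was 0.86. Itga2, the collagen receptor chain, fell to 1.39 ± 0.337 TPM in MOD, against 2.70 ± 0.694 TPM in CON (log2 difference -0.62, adjusted p = 0.0447). That call held under 4 of 15 alternatives, and of the single libraries only the omission of CON 3 kept it, with adjusted p between 0.0619 and 0.134 without each of the others. Itgb1, given above, was the second that rose.

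Of 9 other tetraspanins, 4 were higher and 3 lower, with a median of 0.34. Among all tested genes, 12.5% were higher and 36.1% lower, with a median of -0.31. Cd9, which associates with β1 integrins, fell to 279.9 ± 45.9 TPM in MOD, against 582 ± 15.4 TPM in CON (log2 difference -1.06, adjusted p = 0.00266). Cd82, a suppressor of cell migration, fell to 33.7 ± 8.89 TPM in MOD, against 78.2 ± 10.1 TPM in CON (log2 difference -1.21, adjusted p = 0.00478). Tspan15, a partner of the protease ADAM10, rose to 8.80 ± 2.71 TPM in MOD, against 4.08 ± 0.505 TPM in CON (log2 difference 0.92, adjusted p = 0.0162). That call was lost with the H2-Ea term, where the difference was 1.03.

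Of 14 integrin adaptors, 1 was higher and 5 were lower, beside 12.5% higher and 36.1% lower among all tested genes. Their median was -0.33, close to the -0.31 of all tested genes. Fermt1, the kindlin of epithelial cells, fell to 2.41 ± 0.233 TPM in MOD, against 12.6 ± 1.57 TPM in CON (log2 difference -1.99, adjusted p = 0.00084). Ptk2, the focal adhesion kinase, fell to 15.3 ± 2.09 TPM in MOD, against 29.7 ± 1.92 TPM in CON (log2 difference -0.92, adjusted p = 0.00356). Tns4, a tensin, fell to 20.5 ± 2.31 TPM in MOD, against 35.2 ± 4.61 TPM in CON (log2 difference -0.75, adjusted p = 0.00812). That call was lost after median-of-ratios scaling (adjusted p = 0.0613) and after quantile normalization (0.0692). The adaptor that rose was Tns1 (log2 difference 0.58, adjusted p = 0.0349), named after its value was seen. Its call held under 10 of 16 alternatives and was lost with the H2-Ea term, where the difference was 0.24.

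For 8 members, the gene with the most similar profile is given, found by the smallest Euclidean distance between centred log2(TPM + 1) values over the 6 libraries, as a description only. For Itga3 it was Pwp2, with 4.87, 4.47 and 6.09 TPM in MOD and 10.3, 10.5 and 12.5 TPM in CON (distance 0.12, Pearson's r = 0.999). For Itga6 it was Nfu1, with 110.2, 103 and 103 TPM in MOD and 70.7, 113 and 76.8 TPM in CON (r = 0.989), high in CON 2 as Itga6 was. For Lama3 it was Itgb3bp (r = 0.996), for Col17a1 Rusf1 (r = 0.987) and for Itgb4 Pabpc1l (r = 0.984). For Dst it was A930007I19Rik (r = 0.996), for Plec Dmac2 (r = 0.939) and for Cd151 Coa6 (r = 0.916). Between 678 and 2778 tested genes lay within a distance of 0.5 of a member, so each profile had many close neighbours. Each r is over all 6 libraries and includes the difference between the groups.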

How the data were processed

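RNA from mouse skin was extracted with TRIzol, treated with DNase I and made into libraries with a SMARTER mRNA-Seq kit, per the labels' protocols. The authors deposited TPM values per gene for 6 libraries. Per the submitters' processing notes, the genome build was GRCm39. Which aligner, annotation, quantifier and strand setting were used is not given in the sources used here. TPM keeps no sequencing depth, so depth is unknown and no counting interval is given. Columns were matched to samples by the names in the labels, and 0 columns were left unmapped. Library numbers here are the replicate numbers of the sample titles, which differ from some deposited column names. The deposited column CON3 is called CON 2 here, and the deposited column CON4 is called CON 3.

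Tests were run on genes that reached 1 TPM in 3 or more libraries, as log2(TPM + 1), so fold changes of low genes are understated. limma 3.58.1 in R 4.3.3 was used with a mean-variance trend and no covariate, two-sided, with Benjamini-Hochberg adjustment over all 15323 genes tested and a threshold of 0.05. Intervals are 95% limma intervals. The fit was also run on simulated data, and no result here rests on that run. Ratios within libraries were tested by exact permutation. GENCODE M21 (GRCm38) gave exon overlaps, and RefSeq gave promoters.

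The members and lists were chosen with earlier results of these data known. Named were all 9 members, the up to 3 genes past the threshold with the largest difference in each pathway list, Itgb1, Krt5, Krt14 and Krt15, the nearest profile of each member, summed marker lists and H2-Ea. Some genes that this rule names are not reported here. Alternatives changed the pseudocount, filter, scaling, trend, replicate block and H2-Ea term, or left out each library.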

Additional observations from a re-analysis of the deposited data

How the results depend on the processing

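Whether the samples were paired is not known. By the replicate numbers of the sample titles, deviations of same-numbered libraries correlated at 0.00462, 0.0685 and 0.0657. By the same numbers, 4 of 6 libraries correlated best with their own number. Pairing by the numbers in the column names was not examined. With the number as a replicate block, 7257 of all genes were called, against 7452 without it, and 1 member was lower. Over all genes the H2-Ea term left 3414 calls, and leaving out 1 library gave 4862 (without MOD 1) to 7216 (without CON 3). Members called higher numbered 0 as deposited, 2 after median-of-ratios scaling and 0 to 1 with a library left out. Members called lower numbered 3 as deposited. They numbered 1 with no filter, after median-of-ratios scaling, after quantile normalization, without the 20 most abundant genes and with the block, and 1 to 2 with a library left out. Itga3 was lower in each of these. Of all tested genes, 5538 of 15323 were lower as deposited, 2868 after median-of-ratios scaling, 3177 after quantile normalization and 5343 with the block. With no filter 4580 of 30635 were lower, and without the 20 most abundant genes 4190 of 15303. Higher calls over all genes numbered 1914 as deposited, 1569 with no filter and 3097 after median-of-ratios scaling. With a library left out, 3559 to 5487 genes were lower and 1303 to 2025 higher. For the pathway lists, these alternatives were chosen after seeing the data. The 10 higher calls became 5 with no filter, 0 with the H2-Ea term and 5 to 8 with a library left out. The 24 lower calls became 14 after median-of-ratios scaling, 15 after quantile normalization and 13 to 27 with a library left out. Of the 26 ratios, 16 had no overlap as deposited and 16 with 1 TPM added to both genes. With a library left out, 16 to 21 had none. That count could not fall below 16, because removing a library cannot make separate groups overlap.

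The log2 difference of 5 members changed sign, and the cause was not tested. After median-of-ratios scaling it was 0.32 for Cd151, 0.21 for Dst, 0.25 for Lamb3 and 0.32 for Plec. After quantile normalization it was 0.16 for Cd151, 0.14 for Dst, 0.26 for Lamb3 and 0.31 for Plec. Without the 20 most abundant genes it was 0.12 for Cd151, 0.0089 for Dst, 0.063 for Lamb3 and 0.13 for Plec. With the H2-Ea term it was -0.15 for Itga6 and 0.0016 for Plec. With a library left out it ranged from -0.066 to 0.00099 for Cd151, from -0.31 to 0.053 for Lamb3 and from -0.12 to 0.10 for Plec. Of these sign changes only that of Cd151 after median-of-ratios scaling was past the threshold. Depth is unknown, and 3 libraries a group limit the precision.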
